A study of Mus musculus with 50 samples.

Results

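The comparison described here set the rearing facility (RF) Hannover 1, called RF1, against the RF in Zürich, called RF5, at the first time point (TP1), when male mice were 8 weeks old. It took 10 of the 50 libraries of the series, chosen by their titles, with 5 mice from each RF, and it used all 144458 tested peaks of the series' common peak set. All mice were wild-type C57BL/6JRj males, born in the RFs to dams that one breeder had shipped while pregnant, and the 25 mice of TP1 were killed in their own RF shortly after lights on. The assay was ATAC-seq, which counts fragments cut by the Tn5 transposase from accessible chromatin, on nuclei of the ventral hippocampus of 1 brain side that had been sorted for NeuN, a nuclear protein of mature neurons.

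Both RFs kept mice in open cages with filter tops. They differed in the light schedule (lights came on in the morning in RF1 and in the evening in RF5, and the light phase was longer in RF1), in the supplier of the chow (Altromin in RF1, Kliba Nafag in RF5), and in bedding, shelters, water treatment and room. These factors changed together between the RFs and cannot be told apart. The question put to this pair was how far the rearing environment alone changed neuronal chromatin of animals of 1 strain, sex and source. Littermates that had remained test-naïve were moved to 1 testing laboratory and sampled at 14 weeks (TP2). All libraries of a TP formed 1 sequencing batch, so that age, housing and batch cannot be told apart in any statement on TP2.

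The RF1 libraries held 40340957 to 61769994 counts in peaks and the RF5 libraries 34710141 to 54492271. RF5 replicates 3 and 4 differed by less than sampling noise and were counted as 1 sample in each mean ± SD, which therefore has n = 5 for RF1 and n = 4 for RF5. The spread within RF1 was the wider one, since the mean squared difference between pairs of libraries was 2.64 to 19.5 times sampling noise in RF1 and 0.999 to 2.52 times in RF5. The p-values of the peak tests at TP1 rest on a spread between mice that was pooled over all RFs, not on these mice alone. RF3 and RF4 also held libraries that differed by less than sampling noise. The pooled spread can therefore understate the spread within RF1. Peaks at 6 neuronal marker genes summed to 254 to 289 CPM (counts scaled to the effective library size) in RF1 and 239.8 to 262 in RF5. Microglial (5 peaks, 35.3 to 39.2 CPM in RF1 and 38.8 to 46.3 in RF5) and endothelial markers (2 peaks, 4.53 to 5.75 and 5.38 to 6.19) overlapped between the RFs, and no marker peak was at 0. The 6 astrocyte marker peaks summed to 43.0 to 54.8 CPM in RF1 and 34.0 to 37.6 in RF5, without overlap. In sorted bulk nuclei, a change in the number of nuclei of a type and a change in accessibility per nucleus cannot be told apart.

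Chromatin accessibility is highest at promoters and enhancers, where nucleosomes are displaced by transcription factors, and gene-rich parts of chromosomes are on the whole more open than gene-poor ones. Neurons also carry the molecular clock, in which the activators CLOCK and BMAL1 (encoded by Arntl) bind E-box motifs and drive their own repressors of the PER, CRY and DEC families over the day. The ventral hippocampus is known for its part in anxiety-related behaviour and in the control of stress hormones, and its neurons are rich in glutamate, GABA and serotonin receptors.

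Neuronal chromatin differed between RF1 and RF5 across the genome, with the X chromosome and gene-poor regions mostly higher in RF1 and chromosome 7 and gene-rich regions mostly lower. The test was edgeR's quasi-likelihood test over the 25 TP1 libraries, with RF and replicate number as terms, and FDR is its Benjamini-Hochberg adjusted p. A differentially accessible region (DAR) had an FDR below 0.01 and a log2 fold change, given as RF1 over RF5, of at least 0.5 in size. Of the 144458 peaks 63138 passed the FDR alone (43.7%) and 32375 were DARs (22.4%), with 18624 higher in RF1 (12.9%) and 13751 lower in RF1 (9.52%). Most differences were modest, as the median size over the DARs was 0.68 on the log2 scale, 3587 DARs reached 1 and 32 reached 2. The split of 57.5% higher to 42.5% lower depended on the scaling. When each peak was compared with its own 1 Mb surroundings, through an offset from the summed counts of all peaks of the region in each library, 11989 DARs remained (8.30%), with 3267 higher (2.26%) and 8722 lower (6.04%), or 27.2% and 72.8% of them, and the median over all peaks moved to -0.06. Values from that fit are called within-region values below. In CPM, the 5 RF1 libraries all lay above the 5 RF5 libraries at 15.1% of all peaks and all below at 12.9%.

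Promoter peaks, defined as the nearest peak within 2 kb of a RefSeq gene start, were tested for 15368 coding genes. A DAR was found for 1183 genes with the higher value in RF1 (7.70%) and for 1148 with the lower value (7.47%), with a median of -0.03. Those percentages and that median are the background for the gene groups below. Within regions 0.482% were higher and 2.38% lower, with a median of 0.01.

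The promoters with the largest differences belonged to genes with few known roles in neurons, and their counts were low. Prl3c1, a placental relative of prolactin, held 2.47, 2.118, 2.05, 2.33 and 2.73 CPM in the RF1 libraries and 0.887, 0.973, 0.892, 0.908 and 0.921 CPM in the RF5 libraries at chr13:27195773-27196542. The log2 fold change was 1.34 (SE 0.16, FDR 4.65e-10), and the within-region value was 0.41. Genes were named here only if the libraries of the RFs did not overlap, so their separation is part of the choice. The other 9 of the 10 largest increases in RF1 ranged from 1.09 to 1.25. They were Cnbd1, Sval2, a relative of seminal vesicle antigens, Rgs13, a regulator of G protein signalling, Vmn1r218, a vomeronasal receptor, Lgsn, a lens protein, and 4 X-linked genes. The X-linked ones were Frmd7 (1.12), needed for stable gaze, Lpar4 (1.09), a lysophosphatidic acid receptor, Ndp (1.09), which encodes the vascular growth factor norrin, and Sh2d1a (1.09), an adaptor of lymphocytes. Of these 10 genes Cnbd1 (0.75), Sval2 (0.93) and Vmn1r218 (0.51) were also DARs within regions, and the other 7 were not, with 0.41 (FDR 0.034) at Prl3c1. The peaks at Prl3c1, Sval2, Frmd7 and Lpar4 had been called in RF1 libraries and in no RF5 library. That at Lpar4 was found in 1 group and entered the peak set through RF1, so its FDR is not independent support.

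In the opposite direction Duxf3, a copy of the homeobox gene Dux of the cleavage-stage embryo, held 0.527, 0.344, 0.503, 0.607 and 0.330 CPM in RF1 and 3.58, 3.26, 3.09, 2.82 and 4.77 CPM in RF5 at chr10:58231855-58232536. The log2 fold change was -2.91 (SE 0.18, FDR 3.64e-19) and the within-region value -3.03, and lack of overlap was again a condition of the choice. The peak was found in 1 group, with calls in 0 RF1 and 4 RF5 libraries. It thus entered the peak set through RF5, and its FDR is not independent support. Dux lies in near-identical copies that share reads, so the copy cannot be named with certainty. The 9 next largest decreases in RF1 ranged from -1.38 to -1.17. Among them were Saa3 (-1.38), an acute-phase apolipoprotein, H2-Q4 (-1.36), a major histocompatibility class I gene with close paralogues that may share reads, P2rx1 (-1.24), an ATP-gated cation channel, and Treml1 (-1.17), a platelet receptor. Klhl30, Elobl, Zg16, a lectin of secretory granules, Rasl2-9 and Sbk2 completed the group. All 10 were DARs within regions too, with values from -3.03 to -0.79. Like the peak at Duxf3, those at H2-Q4 and Treml1 had been called in RF5 libraries and in no RF1 library. The peak at Saa3 was found in 1 group, with calls in 1 RF1 and 3 RF5 libraries. It too entered the peak set through RF5, and its FDR is not independent support.

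Away from promoters, the 5 largest decreases in RF1 were at peaks that had been called in RF5 libraries and in no RF1 library. A peak at chr17:13590393-13591562, whose nearest gene start is that of Afdn, the junction protein afadin, held 0.982, 1.102, 1.39, 1.39 and 1.41 CPM in RF1 and 8.07, 7.47, 6.96, 6.15 and 8.54 CPM in RF5. The difference was -2.58 (SE 0.13, FDR 6.26e-22), at a peak for which lack of overlap was a condition of the choice. Afdn itself starts 168979 bp away. The authors' peak caller had found this peak in 0 of 5 RF1 libraries and 5 of 5 RF5 libraries. The other 4 of the 5 largest decreases were at peaks nearest to Gm20812 on the Y chromosome (-3.14), Fam171a1 (-2.86), Adam6b (-2.60) and Tcp10c (-2.57). They measured 181 to 421 bp and were called in no RF1 library and in 3 to 5 RF5 libraries. The within-region value at Gm20812 was -0.11 (FDR 0.77), a region whose median was the value of this peak (-3.14), and those of the other 3 were -2.61, -2.26 and -2.14.

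RF5 lay above the mean of RF2, RF3 and RF4 at all 5 of these peaks and at Duxf3, and RF1 lay below it at some of them. All of these peaks had been called in RF5 libraries and in no RF1 library. The values therefore describe the peaks and are not independent support. At the Afdn peak the 15 libraries of RF2, RF3 and RF4 held 1.58 to 4.11 CPM, and at Duxf3 0.819 to 1.51 CPM. Against the mean of RF2, RF3 and RF4 the Afdn peak stood at 1.45 in RF5 (FDR 2.43e-18) and -1.13 in RF1 (FDR 3.3e-11), and Duxf3 at 1.70 (FDR 2.49e-16) and -1.21 (FDR 3.41e-08), side by side because these tests share libraries. Fam171a1 and Tcp10c had 1.72 and 1.57 in RF5 and -1.14 (FDR 1.87e-06) and -0.997 (FDR 1.55e-05) in RF1. Gm20812 and Adam6b differed from that mean in RF5 (2.76 and 2.11) while RF1 did not pass, with -0.37 (FDR 0.32) and -0.49 (FDR 0.045). RF5 littermates at TP2 held 0.718 to 1.61 CPM at the Afdn peak and 0.249 to 0.592 CPM at Duxf3, below all RF5 libraries of TP1.

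Some of the 5 largest increases in RF1 away from promoters lay near genes of neuronal signalling and adhesion. Near Pcdh19, an X-linked protocadherin of neuronal adhesion, a peak of 1940 bp at chrX:133401547-133403486 held 9.97, 7.85, 7.89, 9.76 and 12.9 CPM in RF1 and 3.62, 2.81, 2.71, 2.93 and 2.57 CPM in RF5. The log2 fold change was 1.69 (SE 0.11, FDR 1.68e-18) and the within-region value 0.92, and lack of overlap was a condition here too. All 5 were DARs within regions. The other 4 lay nearest to Gm29667 (1.77), Il1rapl2 (1.76), an X-linked relative of the interleukin-1 receptor, Grm3 (1.74), a metabotropic glutamate receptor, and Vmn2r6 (1.67), a vomeronasal receptor. These peaks were 7619 to 849774 bp from the gene start that names them.

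The direction of the difference followed gene density. Regions of 1 Mb were placed in 5 classes of about equal size by the number of coding genes whose midpoint lies in them. In the gene-poorest class, with 0 to 1 coding genes, the median log2 fold change was 0.37, and 35.9% of peaks were DARs higher in RF1 against 1.44% lower. In the gene-richest class, with 13 to 67 genes, the median was -0.24, with 2.41% higher and 19.3% lower. The classes between them had medians of 0.18, 0.11 and -0.03 in order of rising gene number, so that the order held across all 5. Within regions the medians ranged from -0.02 in the poorest to -0.09 in the richest class.

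**Figure D1:**
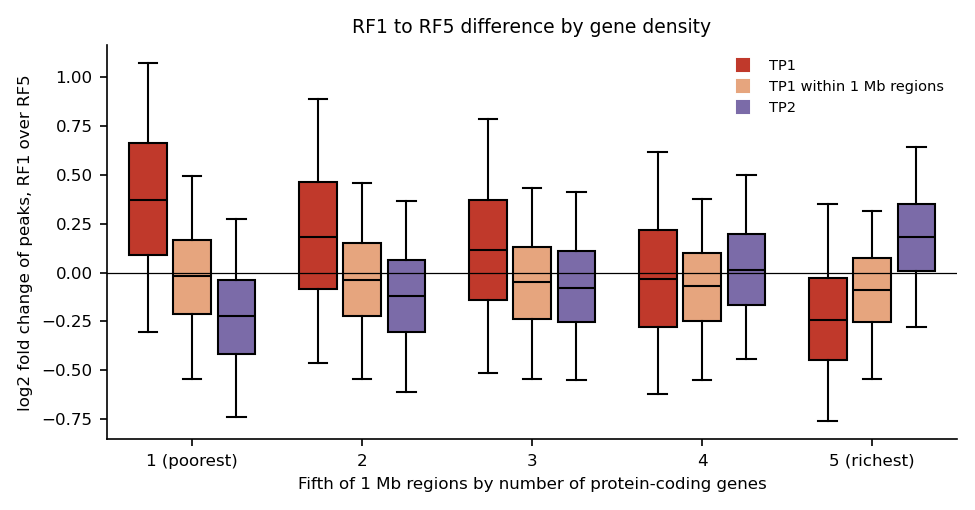
Median log2 fold change of peak accessibility, RF1 over RF5 (vertical axis), by class of 1 Mb regions ordered by the number of coding genes (horizontal axis), at TP1 and TP2. The TP1 median falls from 0.37 in the gene-poorest to -0.24 in the gene-richest class, and the TP2 median runs the other way, from -0.22 to 0.18.

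Counted by library, the gene-richest class took 34.9, 39.2, 40.8, 36.9 and 33.6% of all counts in the RF1 libraries and 40.6, 42.1, 42.4, 42.4 and 41.9% in the RF5 libraries. RF1 replicates 1, 4 and 5 lay farther from RF5 than replicates 2 and 3, and replicate 3 exceeded the lowest RF5 library. The share was 37.1 ± 2.97% (SD, n = 5) in RF1 and 41.8 ± 0.781% (SD, n = 4) in RF5 (exact two-sided permutation test over the 10 libraries, p = 0.0159, adjusted p = 0.0212 over 4 shares). With RF5 replicates 3 and 4 averaged into 1 sample the exact permutation p was 0.0397, and the adjusted p of 0.0529 did not pass 0.05. The gene-poorest class took 6.39 ± 0.762% (SD, n = 5) and 5.09 ± 0.267% (SD, n = 4; exact permutation p = 0.0159, adjusted p = 0.0212; 0.0397 and 0.0529 with the averaged sample). For the X chromosome the shares were 1.57, 1.41, 1.29, 1.48 and 1.68% in RF1 and 1.08 to 1.13% in RF5 without overlap (exact permutation p = 0.00794, adjusted p = 0.0212; 0.0159 and 0.0529 with the averaged sample). The share at promoter peaks was 37.1 ± 1.44% (SD, n = 5) in RF1 and 36.6 ± 1.21% (SD, n = 4) in RF5, which was within the spread of both (exact permutation p = 0.698).

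**Figure D2:**
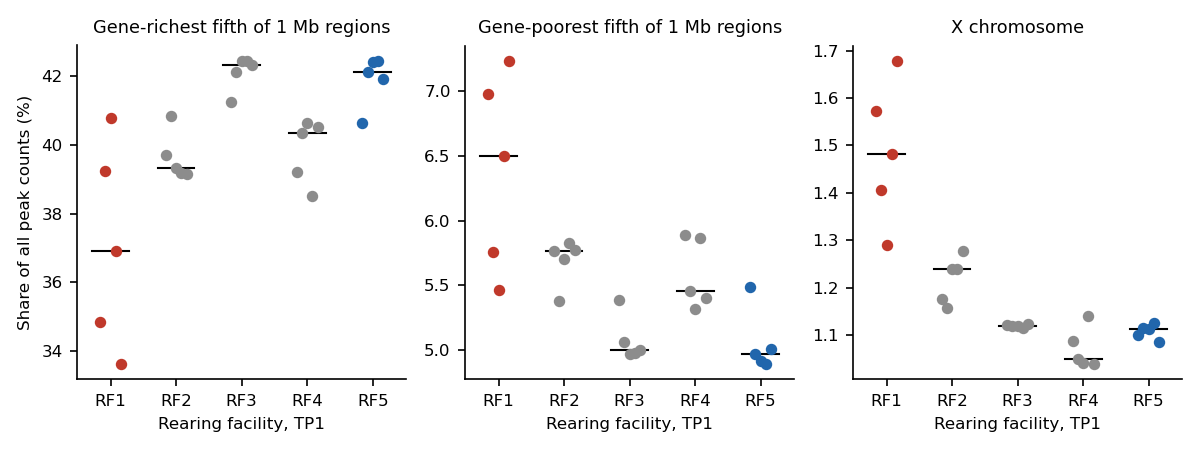
Share of all peak counts (percent, vertical axes) in the gene-richest and gene-poorest class of 1 Mb regions and on the X chromosome, for each TP1 library by RF (points). RF1 libraries spread more widely than RF5 libraries, from 33.6 to 40.8% in the gene-richest class against 40.6 to 42.4%.

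The other RFs gave ranges of 39.2 to 40.8% (RF2), 41.3 to 42.5% (RF3) and 38.5 to 40.6% (RF4) for the gene-richest class at TP1. The X chromosome had the highest median log2 fold change (0.52, with 49.4% of its peaks DARs higher in RF1), followed by chromosome 3 (0.25). Chromosome 7, the home of large clusters of zinc finger and olfactory receptor genes, had the lowest (-0.39, with 33.8% lower in RF1), and chromosomes 11 and 17 stood at -0.22 each. Chromosome 7 took 5.24 ± 0.666% of counts in RF1 (SD, n = 5) and 6.73 ± 0.0830% in RF5 (SD, n = 4), and the libraries of the 2 RFs did not overlap for 20 of 21 chromosomes, with 11 shares higher and 9 lower in RF1.

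**Figure D3:**
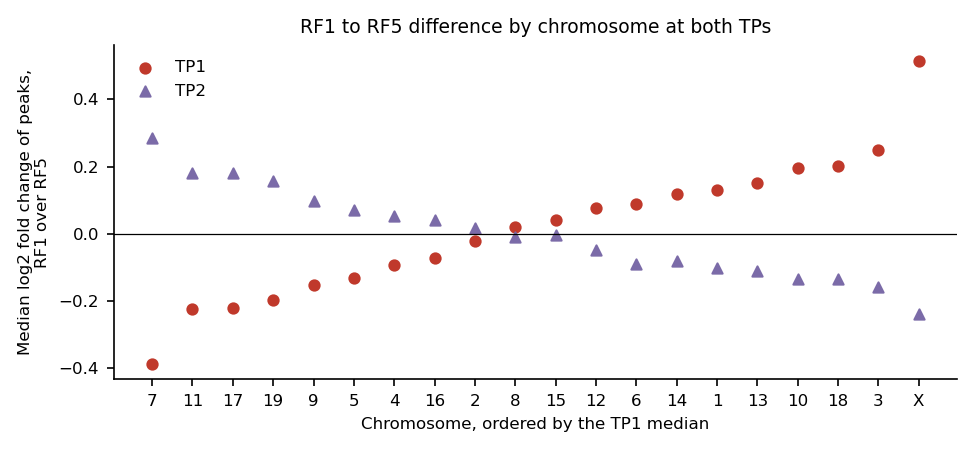
Median log2 fold change, RF1 over RF5, of all peaks on each chromosome (points) at TP1 and TP2, with chromosomes ordered by the TP1 value. The X chromosome lies at 0.52 at TP1 and -0.24 at TP2, and chromosome 7 at -0.39 and 0.28.

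Single regions followed the same layout. Among 2068 regions of 1 Mb with at least 20 peaks, 739 had a median of 0.25 or more and 347 of -0.25 or less, and they held a median of 3 and 17 coding genes (6 over all regions). At TP2 the median was below 0 in 738 of the first and above 0 in 344 of the second. The highest median was 0.92 on chromosome 8 between 97 and 98 Mb, where 17 of 20 peaks were DARs higher in RF1 and no coding gene has its midpoint. The lowest was -0.81 on chromosome 7 between 43 and 44 Mb, with 25 of 32 peaks lower in RF1 and 40 genes. Depth moved with the RF too, as the median RF1 library held 52949870 counts and the median RF5 library 44453692, and its part in this layout was not tested.

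Clock genes were among the groups whose promoters were mostly higher in RF1. Of the 22 promoters tested, 3 were higher in RF1 and 0 lower, which is 13.6% and 0%, against 7.70% and 7.47% of all promoters, and the list median was 0.13 against -0.03. The 3 promoters had high accessibility. Of all promoters with a mean of 20 to 50 CPM 7.93% were higher and 2.18% lower, and above 50 CPM 8.95% and 0.231%. With so few genes, the counts of DARs do not set the list apart from these shares. The log2 fold change was above 0 for 17 of 22 genes and within regions for 19 of 22 (median 0.25 against 0.01). Promoters of high accessibility as a whole leaned the same way within regions, where 64.9% of those with a mean of 20 to 50 CPM and 81.8% of those above 50 CPM were above 0. The windows shown first hold the 250 bases before the start of 3 clock repressors from RefSeq (build GRCm38.p6, all on the minus strand, written 5′ to 3′), chosen because they hold the E-box CACGTG, in capitals, through which the clock acts:
Cry1, chr10:85185055-85185304: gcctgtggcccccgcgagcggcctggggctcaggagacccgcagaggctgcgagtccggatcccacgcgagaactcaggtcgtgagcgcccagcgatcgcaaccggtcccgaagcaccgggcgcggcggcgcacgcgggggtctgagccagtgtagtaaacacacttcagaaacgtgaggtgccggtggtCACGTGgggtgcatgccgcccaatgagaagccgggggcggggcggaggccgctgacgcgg
Bhlhe41, chr6:145865421-145865670: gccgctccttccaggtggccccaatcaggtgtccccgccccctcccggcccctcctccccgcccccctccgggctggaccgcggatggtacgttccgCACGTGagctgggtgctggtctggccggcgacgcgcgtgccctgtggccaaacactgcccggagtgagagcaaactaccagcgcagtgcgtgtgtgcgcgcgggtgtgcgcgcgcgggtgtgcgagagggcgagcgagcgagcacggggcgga
Ciart, chr3:95882229-95882478: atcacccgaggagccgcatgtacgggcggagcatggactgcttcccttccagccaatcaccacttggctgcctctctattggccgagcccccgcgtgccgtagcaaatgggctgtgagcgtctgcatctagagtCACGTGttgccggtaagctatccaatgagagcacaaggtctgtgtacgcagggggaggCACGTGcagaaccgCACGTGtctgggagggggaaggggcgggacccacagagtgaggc

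The E-box lay 60 bases before the start in Cry1, 153 in Bhlhe41, and 116, 58 and 44 in Ciart. Searched on both strands, it was present in 4 of the 18 clock genes with a window (the fourth was Tef) and in 6.02% of all 32851 RefSeq windows. The AP-1 motif TGANTCA was present in 0 of the 18 (6.75% of all windows) and the CRE motif TGACGTCA in 1, Hlf (1.55%). The window of Bhlhe40 is not shown.

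The 3 DARs of the list were at promoters of clock repressors, while the repressors Per1, Per3 and Cry2 had small values, given below. Bhlhe40, which encodes the repressor DEC1, held 108, 117, 108, 115 and 129 CPM in the RF1 libraries and 63.4, 77.7, 77.5, 79.9 and 73.7 CPM in the RF5 libraries at chr6:108659142-108661812, a peak that spans the gene end with the most counts. All RF1 values exceeded all RF5 values, with means of 116 ± 8.43 (SD, n = 5) in RF1 and 73.4 ± 6.97 (SD, n = 4) in RF5, and a log2 fold change of 0.64 (SE 0.06, FDR 3.97e-14). Cry1, a cryptochrome that blocks CLOCK and BMAL1, held 55.6, 59.8, 53.0, 53.4 and 64.3 CPM in RF1 and 36.5, 41.4, 37.8, 40.9 and 37.2 in RF5. Again the RFs did not overlap, at 0.56 (SE 0.06, FDR 7.58e-12). Bhlhe41, which encodes DEC2, ranged from 57.4 to 63.0 CPM in RF1 and 40.2 to 43.2 in RF5 and passed at 0.51 (FDR 2.82e-11), but fell under the limit of 0.5 without RF1 replicate 2 (0.48) or RF5 replicate 1 (0.4998). Ciart, the repressor CHRONO, reached 0.49 (FDR 3.39e-09) and passed the limit only without RF1 replicate 1 (0.55) or RF5 replicate 4 (0.53). RF1 replicate 1, at 44.7 CPM, lay within the RF5 range. Within regions the 4 genes had 0.33, 0.35, 0.26 and 0.48, in this order.

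**Figure D4:**
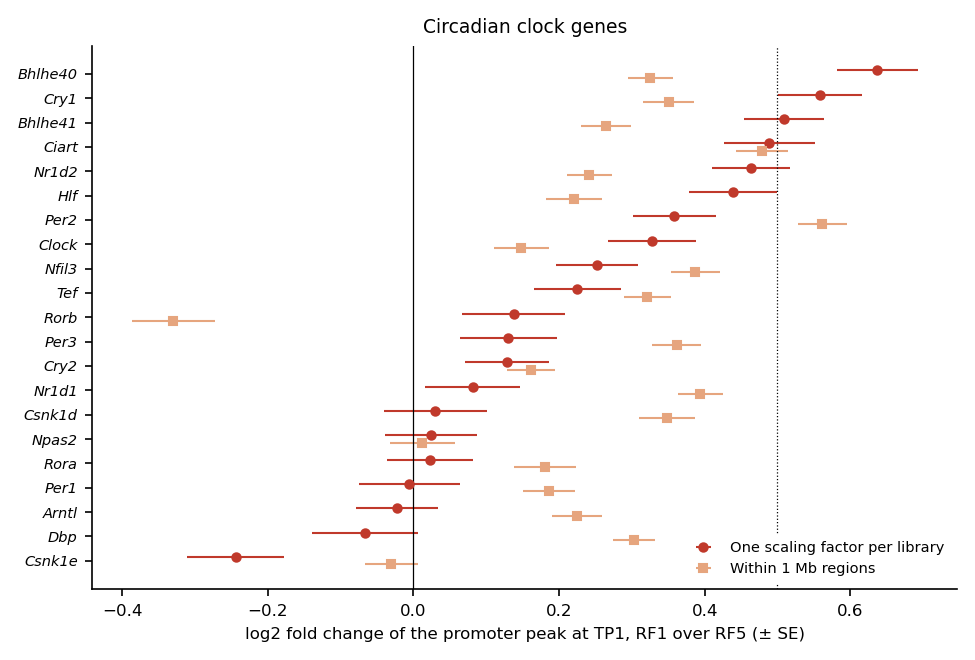
Log2 fold change (± SE) of the promoter peak of 21 clock genes, RF1 over RF5 at TP1, from the fit with 1 scaling factor per library and from the within-region fit, with a dotted line at 0.5. Bhlhe40, Cry1 and Bhlhe41 lie at or above 0.5 in the first fit, and Per2 has the highest within-region value (0.56).

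The other genes of the list, further repressors among them, had smaller values, which did not reach the size of a DAR. Of the period genes, Per2 stood at 0.36 (FDR 4.78e-07), Per3 at 0.13 (FDR 0.089) and Per1 at -0.01 (FDR 0.95). Per2 was the only gene of the list that was a DAR within regions (0.56). The activators differed from each other, since Clock reached 0.33 (FDR 8.37e-06) while Arntl stood at -0.02 (FDR 0.75; 0.22 within regions) and Npas2 at 0.02. In the second loop, Nr1d2, which encodes the heme receptor REV-ERBβ, reached 0.46 (FDR 1.82e-10) against 0.08 for Nr1d1 (FDR 0.3), and the activating receptors Rora and Rorb had 0.02 and 0.14 (-0.33 within regions). Among the output factors that bind D-boxes, Hlf had 0.44 (FDR 2.06e-08), Tef 0.23, the repressor Nfil3 0.25 (FDR 0.00015) and Dbp -0.07 (FDR 0.45; 0.30 within regions). The kinases that mark PER for decay had 0.03 (Csnk1d) and -0.24 (Csnk1e, FDR 0.0017), and the cryptochrome Cry2 had 0.13. The libraries of the 2 RFs did not overlap at 7 of the 22 promoters, all with the higher values in RF1. Over all 15368 promoters they did not overlap at 2935 with RF1 higher and at 1724 with RF1 lower. Among the 1732 promoters above 50 CPM these counts were 434 and 6. With so few genes, the count does not set the list apart.

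Immediate early genes, the first to respond to neuronal activity and growth factors, had the same lean. Of the 28 promoters tested, 6 were higher in RF1 and 0 lower (21.4% and 0%, median 0.22, within regions 0.20). Dusp6, a phosphatase that turns off ERK, held 100.5, 89.5, 77.7, 90.8 and 108 CPM in RF1 and 48.1, 50.7, 51.2, 49.7 and 46.1 CPM in RF5 at chr10:99260991-99264384. The lowest RF1 library lay well above the highest RF5 library, with means of 93.2 ± 11.4 (SD, n = 5) in RF1 and 48.8 ± 2.18 (SD, n = 4) in RF5 and a log2 fold change of 0.92 (SE 0.07, FDR 2.08e-16). Jun, a subunit of AP-1, held 151, 146, 134, 146 and 170.2 CPM in RF1 and 85.9, 93.0, 96.2, 94.96 and 94.9 in RF5. It did not overlap between the RFs (0.68, SE 0.05, FDR 3.1e-15). Klf4, a zinc finger factor, had 0.66, and Homer1, a scaffold of metabotropic glutamate receptors, 0.56. Within regions no gene of the list was a DAR, and these 4 had 0.42, 0.17, 0.32 and 0.34. Dusp6 is shown as an upstream window on the plus strand because it led this list, and it holds none of the E-box, AP-1 and CRE letters:
Dusp6, chr10:99262981-99263230: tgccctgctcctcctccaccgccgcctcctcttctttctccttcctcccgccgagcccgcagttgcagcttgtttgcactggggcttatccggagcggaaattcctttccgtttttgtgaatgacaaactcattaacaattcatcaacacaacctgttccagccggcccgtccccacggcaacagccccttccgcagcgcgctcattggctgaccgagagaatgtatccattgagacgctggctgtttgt

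Genes of glucocorticoid and stress signalling passed in both directions. Of the 23 promoters tested, 5 were higher in RF1 and 2 lower (median -0.06). Higher in RF1 were Tsc22d3 (0.71), the glucocorticoid-induced leucine zipper, Npy1r (0.63), a receptor of neuropeptide Y, and Nr3c2 (0.54), the mineralocorticoid receptor. Lower were both members of the corticotropin-releasing system that passed, Crhr1 (-0.50), its main receptor, and Ucn, the peptide urocortin. Nr3c2 fell under the limit of 0.5 without RF1 replicate 1 (0.48), and so did Crhr1 without RF1 replicate 1 (-0.49) or 5 (-0.42) or RF5 replicate 1 (-0.48) or 5 (-0.47). Ucn held 5.49, 6.34, 7.97, 6.27 and 5.30 CPM in RF1 and 9.83, 9.84, 9.48, 9.99 and 11.97 CPM in RF5 at chr5:31136800-31141361. All RF5 values lay above all RF1 values, with means of 6.27 ± 1.05 (SD, n = 5) in RF1 and 10.3 ± 1.08 (SD, n = 4) in RF5 and a log2 fold change of -0.70 (SE 0.08, FDR 5.51e-10; -0.58 within regions). Its upstream window on the minus strand, shown because Ucn led the lower genes of the list, has the CRE TGACGTCA, in capitals, 44 bases before the start:
Ucn, chr5:31138896-31139145: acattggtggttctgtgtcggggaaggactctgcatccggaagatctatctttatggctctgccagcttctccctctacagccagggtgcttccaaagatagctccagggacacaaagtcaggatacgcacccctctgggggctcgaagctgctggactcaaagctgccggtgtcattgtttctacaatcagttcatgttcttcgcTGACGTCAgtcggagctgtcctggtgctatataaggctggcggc

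Receptor and transporter genes of neurotransmission held DARs in both directions. For glutamate, 4 of the 26 promoters tested were higher and 1 lower in RF1 (median 0.15). The receptor subunits Gria2 (0.54) and Gria3 (0.61) were among the higher ones, and Grm6, the receptor of retinal bipolar cells, was lower (-0.78). Within their regions Gria2 (-0.01) and Gria3 (0.00203) stood near 0. Without RF1 replicate 1 Gria3 was under the limit (0.49). For GABA, 3 of 21 were higher and 1 lower (median 0.22). The α subunits Gabra2 (0.69) and Gabra3 (0.54) and the γ subunit Gabrg1 (0.60, -0.06 within regions) were higher. Gabra3 was under the limit without RF1 replicate 1 (0.40) or 5 (0.45) or RF5 replicate 1 (0.45) or 5 (0.499). Gabrd, the δ subunit of extrasynaptic receptors, was lower (-0.61, FDR 1.66e-09; -0.35 within regions).

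Serotonin and dopamine genes showed 3 higher and 4 lower promoters of 22 (median -0.09). Slc6a4, the serotonin transporter, held 6.13, 8.47, 8.13, 6.17 and 5.56 CPM in RF1 and 11.4, 11.2, 12.8, 12.7 and 12.9 CPM in RF5 at chr11:76995526-76999143. No RF1 library reached the lowest RF5 library, with means of 6.89 ± 1.31 (SD, n = 5) in RF1 and 12.1 ± 0.891 (SD, n = 4) in RF5 and a log2 fold change of -0.82 (SE 0.08, FDR 3.73e-12; -0.47 within regions). Also lower were the receptors Htr1d (-0.59) and Drd1 (-0.53). Higher were the X-linked genes Maoa (0.63), the enzyme that breaks down serotonin, and Htr2c (0.62), and the autoreceptor Htr1a (0.59). Under the limit fell Htr1a without RF1 replicate 1 (0.49) and Drd1 without RF1 replicate 5 (-0.45) or RF5 replicate 5 (-0.49). Within regions Maoa, Htr2c and Htr1a turned to -0.01, -0.24 and -0.03.

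**Figure D5:**
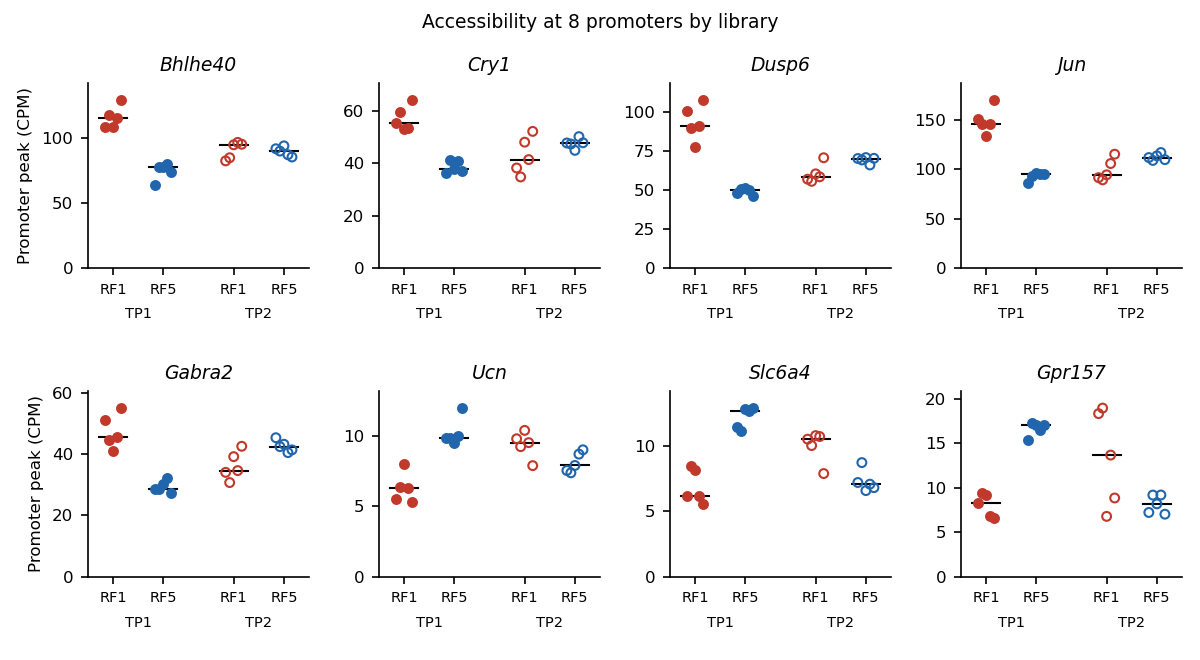
Promoter accessibility (CPM, vertical axes from 0) at 8 genes in each RF1 and RF5 library at TP1 (filled points) and TP2 (open points), with the median as a line. At TP1 Bhlhe40, Cry1, Dusp6, Jun and Gabra2 are higher in every RF1 library and Ucn, Slc6a4 and Gpr157 in every RF5 library.

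The DARs among promoters of synaptic adhesion genes were all higher in RF1, and none of these promoters was a DAR within regions. Of 34 adhesion promoters 8 were higher and 0 lower in RF1 (median 0.30), with Slitrk3 (0.71), Slitrk5 (0.64) and Lrrtm1 (0.57), all organisers of synapses, among them. The log2 fold change was above 0 at 27 of 34, and within regions at 14 of 34 (median -0.03). Their 1505 other peaks followed, with 384 higher and 40 lower (median 0.25, within regions -0.03). Vesicle release genes had 2 higher and 2 lower of 38 (median -0.09) and postsynaptic scaffolds 2 and 0 of 20 (median -0.03). Potassium channels had 3 higher and 0 lower of 42 (median 0.08), and sodium and calcium channels 2 and 2 of 31 (median -0.08).

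Signalling pathways had members on both sides. In the insulin and AMPK list 2 of 30 were higher and 4 lower (median -0.02). Irs1, the docking protein of the insulin receptor, held 70.9, 71.2, 65.1, 66.8 and 79.1 CPM in RF1 and 38.4, 42.9, 41.5, 43.0 and 39.8 CPM in RF5. The ranges were wide apart, at 0.78 (SE 0.06, FDR 3.11e-16; 0.38 within regions). Foxo1, a transcription factor held back by insulin, was higher too (0.64), while Slc2a4, the insulin-regulated glucose transporter (-0.77), Mtor, the growth kinase (-0.60), and Tsc2, its upstream inhibitor (-0.53), were lower, with Tsc2 under the limit without RF1 replicate 1 (-0.48) or 5 (-0.40). In the Wnt list 3 of 31 were higher and 2 lower (median 0.03), with the receptor Fzd1 (0.55, and 0.49 without RF1 replicate 1 or 5) and the nuclear effector Lef1 (0.59) higher and the coreceptor Lrp5 (-0.66) and the receptor Fzd9 (-0.58) lower. Transforming growth factor β and epidermal growth factor genes had 6 higher and 2 lower of 29 (median 0.22), Notch genes 2 and 3 of 23 (median -0.01) and neurotrophin genes 2 and 1 of 27 (median 0.05).

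The few chromatin regulators that passed were higher in RF1, at shares near that of all promoters. Of the 23 promoters of histone deacetylases and DNA methylation enzymes 3 were higher and 0 lower (median 0.07). Sirt1, a deacetylase dependent on NAD, held 36.1, 38.9, 33.4, 35.9 and 39.8 CPM in RF1 and 21.1, 21.6, 21.8, 24.1 and 22.3 CPM in RF5. No library of RF5 reached RF1, at 0.73 (SE 0.06, FDR 1.84e-14; 0.41 within regions). Tet2, which oxidises methylated cytosine, had 0.74 and Hdac2 0.62. Chromatin remodellers had 3 higher and 0 lower of 28 (10.7% and 0%, median 0.07), and none was a DAR within regions. Histone genes were the list with the highest share, as 37 of 65 genes, in 22 of 39 peaks, were higher and 0 lower (median 0.53), but they lie in clusters whose regions had a median of 0.63, and within regions their median was 0.05 with 39 of 65 above 0. The peak shared by H1f1, H3c1 and H4c1 held 94.7, 89.9, 85.4, 92.8 and 109 CPM in RF1 and 58.3, 58.5, 57.8, 58.2 and 50.8 in RF5. It was higher in all RF1 libraries (0.73, SE 0.06, FDR 1.04e-14; 0.13 within regions).

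Imprinted genes, expressed from 1 parental copy, had 5 higher and 5 lower of 27 (median 0.00171). Higher were the growth regulators Grb10 (0.72) and Plagl1 (0.73) and Nap1l5 (0.75), and lower Zim1 (-0.77), Grb7 (-0.60), an adaptor of receptor tyrosine kinases, and Ascl2 (-0.53, but -0.47 without RF1 replicate 5 and -0.49 without RF5 replicate 5), a factor of the placenta. Zinc finger genes of the Zfp family, many of them in clusters, had 14 higher and 66 lower of 351 (median -0.19 against -0.03), and within regions the median was -0.01. Among those with the smallest FDR were Zfp804a (0.84) and Zfp658 (-0.88). Among genes that all cells use, ribosomal proteins had 3 higher and 0 lower of 77 (median -0.07, within regions 0.10). Genes of the respiratory chain had 5 and 4 of 79 (median -0.04), near the shares of all promoters (7.70% and 7.47%). Lower DARs were also rare among all promoters above 50 CPM, where 8.95% were higher and 0.231% lower. Whether the ribosomal counts go beyond promoter level was not tested. The 35 protocadherin genes with a promoter peak shared 4 peaks, and neither they nor 6 Hox genes held a DAR.

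Cell type markers differed by cell type. Of 6 pan-neuronal markers 0 were DARs, and the 7 markers of pyramidal cells had 1 higher, with sums of 142 to 158 CPM in RF1 and 140.2 to 152 in RF5. Markers of the dentate gyrus summed to 208 to 221 CPM in RF1 and 155 to 176 in RF5 and those of interneurons to 118 to 126 and 100.2 to 105, both without overlap. Of 6 markers of the ventral hippocampus and its neighbours 3 were higher in RF1, namely Dcn (0.96), Trhr (0.68) and Etv1 (0.71), with sums of 61.4 to 83.4 CPM and 46.8 to 52.4 and a median of 0.55 (0.04 within regions). Among glial markers Slc1a3, the astrocyte glutamate transporter, was higher (0.86, 0.39 within regions), as was Gja1 (0.63, -0.05 within regions), whose libraries overlapped. Of the microglial markers P2ry12 was higher (0.63) and Aif1 (-0.59, but -0.49 without RF1 replicate 5) and Tmem119 (-0.68) lower, and Cldn5, of endothelial tight junctions, was lower (-0.83). Oligodendrocyte markers summed to 39.0 to 42.4 CPM in RF1 and 34.1 to 39.4 in RF5, with overlap. The sums for astrocytes, the dentate gyrus, interneurons and the ventral hippocampus moved with the RF beside all gene groups above, and their part in those differences was not tested.

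Promoters of 4 genes that the study discusses gave mixed values. Col19a1, a collagen, stood at 0.05 (FDR 0.64), Dlg2, a scaffold of the postsynaptic density, at -0.17 (FDR 0.042), and Lrrc4c, a netrin-G ligand, at 0.39 (FDR 7.06e-06; -0.08 within regions). None of these promoter peaks was a DAR, whereas that of the Wnt receptor Fzd9 was (-0.58, FDR 5.3e-08). The study compared all pairs of RFs and mapped differing peaks to their adjacent genes. The values here cover only the promoter peak of each gene in this pair of RFs, so they do not test the study's statements.

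Among the DARs, RF1 differed from the mean of the other RFs more often than RF5 did. Of the 32375 DARs, RF1 differed from the mean of RF2, RF3 and RF4 by the same criteria at 13581 where RF5 did not (41.9%), RF5 alone did at 2913 (8.998%), both did at 621 (1.92%) and neither did at 15260 (47.1%). Peaks higher in RF1 than RF5 had a median of 0.48 for RF1 against that mean and -0.26 for RF5, and lower peaks -0.45 and 0.21. These comparisons share libraries and are given side by side. The counts cover only peaks chosen for a difference between RF1 and RF5. The share over all peaks is not given, so they do not describe RF1 or RF5 as a whole.

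At TP2 the difference between animals from RF1 and RF5 was smaller in number and mostly opposite in direction. There were 8350 DARs (5.78%), with 4824 higher in RF1 (3.34%) and 3526 lower (2.44%). Promoters had 472 higher (3.07%) and 64 lower (0.416%). Of the 32375 TP1 DARs 3603 were DARs at both TPs (11.1% of the TP1 and 43.1% of the TP2 DARs), 219 in the same and 3384 in the opposite direction. A change of the difference between the TPs was tested over 20 libraries and passed at 50812 of 144453 peaks (35.2%) and at 49.6% of promoters. Of the peaks with a change 25525 were TP1 DARs, which is 78.8% of the TP1 DARs. The test uses the TP1 libraries that chose the DARs, so a high share follows in part from that choice. RF1 replicate 3 of TP2 was shallow, with 5111223 counts, and the gene-richest class took 36.2% of counts in RF1 replicate 5 of TP2, nearer to the RF5 littermates (35.5 to 36.1%) than to RF1 replicates 1, 2 and 4 (39.7 to 40.6%). In a further fit these 2 libraries were left out together, after their values were seen. Without them there were 23771 TP2 DARs, and 9405 of the 9791 peaks shared by the TPs were opposite. Replicate 5 resembled RF5 in the share above, so a wider difference follows in part from leaving it out. Within regions neither direction prevailed, as 193 of 377 shared DARs had the same direction and 184 the opposite.

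The promoter DARs with the smallest FDR for this change are given by library, and their turn is part of that choice. Gpr157, an orphan G protein-coupled receptor, held 8.29, 9.40, 9.15, 6.78 and 6.63 CPM in RF1 and 15.4, 17.3, 17.1, 16.6 and 17.1 in RF5 at TP1. At TP2 it held 18.4, 18.99, 6.79, 13.7 and 8.86 CPM in RF1 and 7.23, 9.19, 8.19, 9.20 and 7.03 in RF5. All RF5 libraries were higher at TP1, and at TP2 the RF1 libraries were spread widely with replicate 3 below the RF5 range. Its log2 fold change went from -1.05 to 0.75 (1.04 without RF1 replicates 3 and 5 of TP2). Fbxo17 (-0.82 to 0.59) and Fbxo27 (-0.88 to 0.51), F-box genes of ubiquitin ligases, and the peak shared by Dedd2 and Zfp526 (-0.67 to 0.46) turned likewise. In the opposite direction Smarcad1, a chromatin remodeller, went from 0.93 to -0.47, Cetn3, a centrin, from 0.85 to -0.36, the peak shared by Aimp1 and Tbck from 1.08 to -0.49, and Dusp6 from 0.92 to -0.20. At TP2 Bhlhe40 stood at 0.02 (FDR 0.85) and Cry1 at -0.17 (FDR 0.044; -0.30 without RF1 replicates 3 and 5 of TP2), with a change between TPs of 0.63 (FDR 5.25e-06) and 0.74 (FDR 5.28e-06).

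A small set of promoters had the same direction at both TPs. Of the 2331 promoter DARs at TP1, 9 were DARs in the same and 211 in the opposite direction at TP2, and all 9 were higher in RF1. Those that also held when any 1 TP1 library was left out include Selenop (1.04 at TP1 and 1.43 at TP2), the carrier of selenium, Pdk4 (0.59 and 0.52), a kinase that limits glucose oxidation, Mlc1 (0.65 and 0.66), a protein of astrocyte end-feet, and the zinc finger factors Sall1 (0.66 and 0.64) and Zic5 (0.60 and 0.50). These genes were chosen after their values were seen. Selenop rests on low counts, with TP1 means of 0.851 CPM in RF1 and 0.411 CPM in RF5. That is under the minimum of 1 CPM set for the largest promoter differences.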

How the data were processed

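ATAC-seq libraries of NeuN+ nuclei of the ventral hippocampus were grouped by RF, TP and replicate from their titles. Per the study's methods the authors trimmed reads with fastp, aligned them with Bowtie2 to the Ensembl build of GRCm38, marked duplicates with Picard 1.140, called peaks on all read pairs with MACS2 2.1.4 (broad cut-off 0.1) and kept peaks found in at least 3 of 5 libraries of a group. The deposited table of the whole series holds raw counts of fragments per peak, for which marked duplicates were ignored, and a second deposited table, named as normalised, held the same values and was not used. The peak lists the authors deposited give a −log10 q-value for each peak, and a merged list carries a deposited score, and both were used for peak positions and for which libraries had a peak called.

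The quasi-likelihood test of edgeR 4.0.16 (R 4.3.3) was fitted to the counts ( trimmed-mean scaling, filter on low counts) of the 25 TP1 libraries with RF and replicate number as terms, the latter in place of the processing batch of the study's methods, which the labels do not give, and p-values were adjusted by Benjamini-Hochberg over all peaks. CPM values use the scaled library sizes. The change between TPs was tested as an interaction over 20 libraries. Shares were compared by exact permutation over all splits. For the within-region fit the log of the summed counts of each 1 Mb region, the tested peak included, entered as an offset per library. Gene starts came from RefSeq (GRCm38.p6). For 4395 of 21887 coding genes the strand was not given in the table used, both ends were searched within 2 kb and the end with more counts was taken. Libraries of a group whose counts differed by less than 1.02 times sampling noise were averaged into 1 sample for mean ± SD. Fits were tested on simulated counts.

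The 10 largest promoter differences and the 5 largest distal ones in each direction were named among DARs with a mean of at least 1 CPM and no overlap between the RFs. From each gene list up to 3 promoter DARs in each direction by FDR and the clock genes were named, with 4 genes the study discusses and the 5 promoter DARs in each direction with the smallest FDR for the change between TPs. Results at 2 genes that this rule selects are not reported here. The members, lists and tests were chosen with earlier results of these data known. Alternatives were DESeq2 1.42.0, other scaling, filters, offsets and limits, no block, and leaving out each library.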

Additional observations from a re-analysis of the deposited data

Results flagged for a closer look

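In groups of 5 libraries, 1 library lay apart from the other 4 by Dixon's limit in 10 of 248 groups tested, and chance alone would mark about 1 in 20. RF5 replicate 1 held 1.019 CPM at Sval2 (others 0.512 to 0.636), 46.4 CPM at Per2 (others 54.2 to 56.7) and 1.302 CPM at the peak nearest to Grm3 (others 0.629 to 0.697), and it had 5.49% of its counts in the gene-poorest class of regions (others 4.89 to 5.01%). RF5 replicate 3 held 14.4 CPM at Zfp658 (others 12.8 to 13.2) and 9.43 CPM at Col19a1 (others 7.58 to 7.68). RF5 replicate 5 held 0.391 CPM at Lpar4 (others 0.743 to 0.885), 11.97 CPM at Ucn (others 9.48 to 9.99) and 50.8 CPM at H1f1 (others 57.8 to 58.5). In RF1, replicate 4 held 0.582 CPM at the Y-chromosomal peak nearest to Gm20812 (others 0.145 to 0.207).

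The difference between RF1 and RF5 was not the same at the 2 TPs at 50812 peaks (edgeR interaction test, FDR below 0.01). The log2 difference at TP1 minus that at TP2 was 1.42 at Smarcad1, 1.22 at Cetn3, 1.13 at Dusp6 and 1.57 at the peak shared by Aimp1 and Tbck. It was -1.13 at the peak shared by Dedd2 and Zfp526, -1.41 at Fbxo17, -1.38 at Fbxo27 and -1.76 at Gpr157. Age, housing in the testing laboratory and sequencing batch changed together between the TPs and cannot be told apart.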

How the results depend on the processing

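The 32375 DARs became 32559 with DESeq2, 32376 with RLE factors, 32376 without a filter on low counts, 31018 with at least 1 CPM in 5 libraries, 31506 with a loess offset, 31297 with only the 10 libraries of RF1 and RF5 and 30851 with libraries within sampling noise summed. The offset per 1 Mb region left 11989, an FDR below 0.05 with no fold limit gave 80349 and a limit of 1 on the log2 scale 3587. Leaving out 1 library at a time gave 25981 (without RF1 replicate 5) to 38294 (without RF1 replicate 3). The change between TPs, at 50812 peaks, fell to 20055 with the region offset, ranged from 38656 to 58103 when 1 library was left out, and reached 63066 without RF1 replicates 3 and 5 of TP2, an alternative chosen after seeing the data.

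Replicate numbers were not shown to pair the libraries, as the deviations of same-numbered RF1 and RF5 libraries correlated at 0.262, 0.085, 0.105, -0.0388 and -0.0438, with 2 of 5 over 0.1. Without the replicate block there were 31830 DARs and 52683 peaks with a change between TPs. Under the replicate block, with sign flips of 5 paired differences, the smallest possible p is 0.0625. The differences in the share on the X chromosome (0.378 percentage points), in the gene-richest class (-4.82) and in the gene-poorest class (1.33) therefore could not pass and gave 0.0625. With 1 library left out, these differences ranged from 0.330 to 0.427, from -5.74 to -3.95 and from 1.12 to 1.56 with p from 0.00794 to 0.0397 (exact permutation), and that at promoter peaks from -0.175 to 0.820. With RF5 replicates 3 and 4 averaged into 1 sample, an alternative chosen after seeing the data, the adjusted p of the other 3 shares rose from 0.0212 to 0.0529 (exact permutation). The promoter share turned without RF1 replicate 2 (-0.0964) and without RF5 replicate 1 (-0.175).

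Among 130 named genes the region offset kept the direction and the call at 43, took the call from 72, gave it to 1 and turned the sign at 14. The signs turned at Gria2 (-0.00934), Gabrg1 (-0.0586), Maoa (-0.0136), Htr2c (-0.24), Htr1a (-0.0347), Slitrk5 (-0.0116), Gja1 (-0.0475), Arntl (0.22), Dbp (0.30), Per1 (0.19), Rorb (-0.33), Col19a1 (-0.18), Dlg2 (0.0294) and Lrrc4c (-0.0770). Per1 also turned with at least 1 CPM in 5 libraries (0.000115), without the replicate block (0.00544) and with libraries summed (0.0186). When 1 library was left out, 107 genes kept direction and call. Genes near 0 turned, with ranges of -0.0575 to 0.0126 at Arntl, -0.0496 to 0.131 at Col19a1, -0.0604 to 0.115 at Csnk1d, -0.168 to 0.0255 at Dbp, -0.0195 to 0.0762 at Npas2, -0.0973 to 0.0496 at Per1 and -0.0257 to 0.0588 at Rora. The causes of these moves were not tested. Each RF is 1 facility with 5 males, so the facility and the animals sampled from it cannot be told apart. Promoters below 5 CPM, which include Prl3c1, Duxf3 and Selenop, rest on low counts.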

Other observations

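Promoter level moved with the direction of the difference between RF1 and RF5. Promoters with a mean of 0 to 5 CPM had 7.34% DARs higher and 23.6% lower in RF1 (2099 promoters, median -0.19), and those above 50 CPM had 8.95% higher and 0.231% lower (1732 promoters, median 0.06). The windows before genes higher in RF1 had a median GC content of 59.3%, those before genes lower in RF1 57.7% and those before other genes 61.3%. Narrow peaks held more DARs in both directions, with 17.7% higher and 12.5% lower in the narrowest of 4 width classes and 8.06% and 6.91% in the widest. Peaks outside genes were higher in RF1 at 21.9% and lower at 10.1%, against 7.36% and 9.06% for promoter peaks. Of peaks found in all 10 groups of the series 13.1% were higher and 6.10% lower, and of peaks found in 1 group 9.94% and 13.3%.

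Chemosensory receptors, which act in the nose and are silent in most neurons, had a promoter peak at 37 of 1459 genes, with 9 DARs higher and 9 lower in RF1 (median -0.08).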
